A study of Mus musculus with 143 samples.

Results

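The genes Mt1, Tmem175, Manba, Pnpla3, Arid5b, Ccnd2, Pxdn and BC023719 are described here as 8 genes near zero in some single mouse oocytes and high in others that carry the same genotype label. The pattern is closest to on or off in Mt1, Tmem175, Manba, Pnpla3, Pxdn and BC023719, is graded in Ccnd2, and in Arid5b the high oocytes at GV3h were also graded. They were picked from the counts themselves for that pattern, so their levels, and every comparison built on these levels, are given as a description and not as a finding. They are 8 of 17389 genes that passed the filter on low counts in the poly(A) libraries and 8 of 17267 in the RiboMinus libraries, which are made after depletion of ribosomal RNA. All 8 passed the filter in both.

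The study compared control oocytes with oocytes lacking Dis3, Exosc10 or both, the 2 catalytic ribonucleases of the nuclear RNA exosome. Poly(A) libraries were made from single oocytes at the germinal vesicle stage (GV, the prophase-arrested oocyte dissected from the ovary), from oocytes after 3 h of culture in M2 medium (GV3h), and from metaphase II eggs (MII) taken from the oviducts of superovulated females. Controls numbered 8 at each stage and Dis3 cKO oocytes 15 at GV, 16 at GV3h and 16 at MII. RiboMinus libraries came from 8 single oocytes in each of 6 groups, namely adult GV controls, adult GV Dis3 cKO, and oocytes from mice of postnatal day 20 (p20) in 4 genotypes. The labels name the p20 genotypes control, dis3cKO, exo10cKO and dcKO, the last read here as lacking both enzymes. Mutant mice were built with CRISPR/Cas9, per the labels; the Cre driver, the strain, the age of the adults and the exact genotype of the controls are not given in the sources used here. CUT&Tag peak lists for the repressive histone mark H3K27me3 and for RNA polymerase II (titled pols2s5) came from pooled oocytes, 3 lists in each of 7 groups. Nothing in the labels says that the oocytes of a group came from separate animals, so the p-values behind the calls below measure only the spread between these oocytes.

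Fully grown oocytes carry a store of maternal messenger RNA that was transcribed during growth, and transcription is largely silent by the time meiosis resumes. RNA in a single oocyte is therefore a record of past transcription as well as of decay, and the nuclear exosome is one of the machines that degrade nuclear RNA from its 3′ end. Mt1 encodes metallothionein 1, a small metal-binding protein induced by zinc and cadmium through the transcription factor MTF1. Tmem175 encodes a lysosomal cation channel and Manba a lysosomal beta-mannosidase. Pnpla3 encodes a patatin-like lipase of lipid droplets. Arid5b encodes a DNA-binding protein of the ARID family, and Ccnd2 encodes cyclin D2, a G1 cyclin strongly expressed in granulosa cells of the ovary. Pxdn encodes peroxidasin, a heme peroxidase that crosslinks collagen IV in basement membranes. BC023719 is annotated as a transcribed pseudogene in the major histocompatibility region.

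Levels are reads of a gene per 1000000 reads on all genes (CPM), with spike-in reads kept out of the total. Totals on genes ran from 4843964 to 15412200 reads in 71 poly(A) libraries and from 8492102 to 35429028 in 48 RiboMinus libraries. A library is called high at 20 CPM or more, which is 96.9 reads in the shallowest poly(A) library and 169.8 in the shallowest RiboMinus library, and near zero at 3 CPM or less, which is 14.5 and 25.5 reads there. A count of 0 allows up to 3 reads, or 0.619 CPM in the shallowest poly(A) library and 0.353 CPM in the shallowest RiboMinus library, and these limits cover counting error only. The targeted genes went with the labels, in that median Dis3 was 12.6 CPM in GV controls and 2.99 in GV Dis3 cKO, and median Exosc10 was 115 CPM in p20 controls and 1.91 in p20 Exosc10 cKO. All 12 oocyte markers were present in every group. No libraries held identical counts. Some libraries stood apart from their groups. Control 1 at GV held 48.1 CPM of Exosc10 against 97.6 to 122 in the other GV controls, and Dis3 cKO 15 at MII had a ratio of gene reads to spike-in reads of 14.39 against 48.59 to 80.98 in the other MII Dis3 cKO libraries. Calls that change without GV control 1 or MII Dis3 cKO 15 are given with and without it. By the same ratio GV Dis3 cKO 16 also stood apart, at 207.9 against 77.54 to 122.08 in the others. At p20, Exosc10 cKO 2_4 held 582.24 against 1114.47 to 1515.11, and Dis3 cKO 1_4 held 547.44 against 898.36 to 1200.64. These last libraries were not left out one at a time.

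Mt1 (ENSMUSG00000031765, chr8:94178883-94180327, GRCm38.p6) held 0.102 CPM in GV control 1 and 164 to 204 CPM in GV controls 2 to 8. In the 15 GV Dis3 cKO oocytes it ran from 39.3 to 258 CPM with a median of 102. At GV3h, control oocytes 1, 2, 3 and 4 held 1.40, 0.242, 0.586 and 0.687 CPM and controls 5, 6, 7 and 8 held 158, 179, 137 and 181, while the 16 Dis3 cKO oocytes ran from 51.8 to 144. So the GV3h controls fell into a near-zero set and a high set of the same size, and the mutants lay below the high set or within it. At MII, controls ran from 0 to 1.44 CPM and Dis3 cKO eggs from 9.63 to 49.9, with no overlap. In adult RiboMinus controls the title tag AM1758 marked 4 oocytes at 0.255 to 1.18 CPM and the tag AM1759 marked 4 at 63.2 to 83.2. Adult Dis3 cKO oocytes held 29.6 to 74.9 CPM under both of their tags. In the 8 p20 controls Mt1 ran from 0 to 0.697 CPM, which is 48 reads in all, against 46.8 to 94.5 in Dis3 cKO, 48.8 to 131 in Exosc10 cKO and 50.8 to 112 in dcKO. Control oocytes near zero in Mt1 were thus found at all 3 poly(A) stages and at both RiboMinus ages, and every mutant oocyte of every genotype held at least 9.63 CPM.

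The neighbouring paralog Mt2 stayed at or under 2.95 CPM in every library of both assays. Metallothionein genes are known for the metal response elements of their promoters, and the 250 bases before the start sites of both genes, taken from the RefSeq promoter table of GRCm38.p6, are shown because Mt1 was on-or-off while Mt2 was never high. The Mt1 window is chr8:94178839-94179088 and the Mt2 window chr8:94172368-94172617, both on the plus strand, and the annotated Mt1 gene span begins inside its window. That span begins at 94178883, so most of the Mt1 window lies within it. The Mt1 count below is thus not a count over the bases before the span. Capitals mark matches on either strand to TGCNCNC, the core of the metal response element with any base at its degenerate positions.
Mt1: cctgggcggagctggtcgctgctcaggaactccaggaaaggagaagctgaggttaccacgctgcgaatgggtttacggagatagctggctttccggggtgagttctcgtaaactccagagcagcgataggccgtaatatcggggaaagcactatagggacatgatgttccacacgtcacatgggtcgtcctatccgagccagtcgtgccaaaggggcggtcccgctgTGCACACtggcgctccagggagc
Mt2: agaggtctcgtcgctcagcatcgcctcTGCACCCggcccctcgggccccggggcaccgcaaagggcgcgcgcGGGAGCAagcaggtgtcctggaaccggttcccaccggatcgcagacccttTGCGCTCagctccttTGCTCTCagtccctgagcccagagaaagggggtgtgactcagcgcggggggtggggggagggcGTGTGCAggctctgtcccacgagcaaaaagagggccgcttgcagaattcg
Mt1 held 1 match, which 44.4% of 32841 RefSeq promoter windows of the same length hold at least as often, and Mt2 held 5, which 0.344% do. Since most of the Mt1 window lies within its gene span, these counts do not set the promoter of Mt1 against that of Mt2. A match is only a run of letters and says nothing of binding here.

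Tmem175 (ENSMUSG00000013495, chr5:108629779-108647770) was on in every poly(A) library, from 24.3 CPM in MII Dis3 cKO 15 to 123 CPM, and in every adult RiboMinus library, from 51.2 to 87.2. At p20 it was on or off. The 8 controls held 0.711 to 3.09 CPM. Dis3 cKO oocytes held 43.2 to 67.0, and Exosc10 cKO oocytes held 50.2 to 78.0 under the first title number and 23.2 to 39.2 under the second. In dcKO, oocytes 1_1, 1_2, 1_3 and 1_4 held 0.707, 1.82, 2.20 and 0.561 CPM and oocytes 2_1, 2_2, 2_3 and 2_4 held 39.0, 38.3, 38.8 and 31.5. The dcKO group therefore held one set below 3 CPM, 2 of them within the control range and 2 just under it, and one set far above it. Tmem175 overlaps Dgkq, and its neighbour Gak lies 0.002 kb away, at 14.5 to 50.5 CPM with no split group.

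Manba (ENSMUSG00000028164, chr3:135485611-135571404) was at 2.19 CPM or less in all GV libraries of both genotypes. At GV3h, controls 1, 2, 3 and 4 held 112, 103, 116 and 96.3 CPM and controls 5, 6, 7 and 8 held 0, 0, 1.05 and 0.748. Dis3 cKO oocytes 1 to 8 held 0.316 to 2.50 CPM and oocytes 9 to 16 held 92.7 to 144, so both genotypes held a near-zero set and a high set. At MII it was on in every egg, at 158 to 243 CPM in controls, 105 to 203 in Dis3 cKO 1 to 11 and 220 to 305 in Dis3 cKO 12 to 16. In adult RiboMinus libraries, control tag AM1758 held 25.5 to 31.1 CPM and AM1759 0.197 to 1.45, and Dis3 cKO tag AM1713 held 0.163 to 1.06 and AM1757 29.9 to 42.3. No p20 library held more than 1.502 CPM. The gene before it on the chromosome, Ube2d3, ran from 562 to 1755 CPM over the poly(A) libraries and was split in no group.

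Pnpla3 (ENSMUSG00000041653, chr15:84167776-84189521) was split in more groups than any other of the 8 genes, with 6 of 12. GV controls 1, 2 and 3 held 85.1, 87.1 and 85.3 CPM and controls 4 to 8 held 0.767 to 3.60. GV Dis3 cKO oocytes 1 to 4 held 70.9 to 93.7 CPM and the other 11 held 0.776 to 4.23. At GV3h, controls 1 to 4 held 0.702 to 2.63 CPM and controls 5 to 8 held 89.6 to 115, whereas the 16 Dis3 cKO oocytes held 2.08 to 6.82. All MII controls were at 0.525 CPM or less, and among MII Dis3 cKO eggs numbers 5 to 11 held 105 to 133 CPM and the other 9 held 0.182 to 1.604. Adult RiboMinus controls held 34.8 to 79.1 CPM, Dis3 cKO tag AM1757 held 30.6 to 40.8, and tag AM1713 held 3.91, 1.96, 4.15 and 0.669. The 3.91 and 4.15 CPM lie just outside the near-zero limit. At p20, controls with first number 1 held 30.5 to 41.2 CPM and those with first number 2 held 0.636 to 2.10. Dis3 cKO and Exosc10 cKO oocytes were all at or under 1.66 CPM and dcKO oocytes held 17.4 to 30.1. Both states of Pnpla3 thus occurred among controls at GV, at GV3h and at p20.

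Arid5b (ENSMUSG00000019947, chr10:68092523-68279355) was on in all GV libraries, at 166 to 446 CPM. At GV3h, controls 1, 2, 3 and 4 held 1.64, 0.847, 2.81 and 1.15 CPM and controls 5, 6, 7 and 8 held 118, 11.8, 161 and 188. Dis3 cKO oocytes 1 to 8 held 5.39 to 208 CPM and 9 to 16 held 0 to 2.05. MII controls held 0.807 to 7.72 CPM, Dis3 cKO eggs 1 to 11 held 87.2 to 243 and eggs 12 to 16 held 0.475 to 1.598. In RiboMinus libraries it was on in all, at 215 to 747 CPM in adults and 490 to 2561 at p20. Unlike in the genes above, the high sets at GV3h were graded, with control 6 at 11.8 CPM between the limits.

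Ccnd2 (ENSMUSG00000000184, chr6:127125162-127152188) was graded rather than on or off. GV controls 1 to 8 held 8.34, 427, 400, 41.7, 134, 94.7, 51.8 and 21.4 CPM, and GV Dis3 cKO oocytes 5.70 to 100. In the same order of GV controls, the granulosa cell marker Inha held 0, 62.4, 57.3, 20.02, 25.9, 22.9, 10.3 and 4.66 CPM. Ccnd2 and Inha, which was picked out after its values were seen, were both highest in controls 2 and 3 and both lowest in control 1. Of the 18 granulosa or cumulus markers, 6 were highest in control 2, 3 in control 3, 3 in control 5 (among them Inhbb at 8.37 CPM and Foxl2 at 2.17), 2 in control 6 and 1 each in controls 1, 7 and 8, and 1 was at 0 in all. In control 1, with the least Ccnd2, 9 of the 18 were at 0, but Cyp19a1 was highest there at 47.7 CPM. The marker sum without Inha was 149.6, 120.5 and 139.8 CPM in controls 2, 3 and 5 and 91.7 to 117.9 in the others. In GV Dis3 cKO oocytes Inha ran from 0.543 to 80.6 CPM, and the oocyte at 80.6, number 4, held 36.2 CPM of Ccnd2. The summed level of all 18 granulosa or cumulus markers was 99.1 to 212 CPM in GV controls and 84.6 to 225 in GV Dis3 cKO, while 8 to 13 of the 18 had a median under 1 CPM in a group, and the part of such cells in the Ccnd2 level was not tested. At GV3h, controls held 2.21 to 21.9 CPM and Dis3 cKO oocytes 2.66 to 126. No MII egg held more than 1.70 CPM. Adult RiboMinus oocytes held 2.67 to 39.7 CPM in controls and 3.35 to 26.2 in Dis3 cKO. At p20, Ccnd2 ran from 4.14 to 40.8 CPM in controls, 1.44 to 36.3 in Dis3 cKO, 1.41 to 83.7 in Exosc10 cKO and 0.0839 to 2.51 in dcKO.

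Pxdn (ENSMUSG00000020674, chr12:29936642-30017658) held 0 CPM in GV control 1 and 42.9 to 66.4 in controls 2 to 8. GV Dis3 cKO oocytes 1 to 4 held 32.3 to 43.5 CPM and the other 11 held 89.3 to 182. All GV3h libraries were on, at 53.2 to 137 CPM. MII controls held 109 to 216 CPM. MII Dis3 cKO eggs 1 to 4 held 55.5 to 86.3 CPM, eggs 5 to 11 held 0 reads each, and eggs 12, 13, 14, 15 and 16 held 112, 154, 200, 17.1 and 152. These 7 MII eggs thus had no Pxdn read, while the other 9 of their genotype did. Adult controls held 104 to 153 CPM, Dis3 cKO tag AM1713 held 48.3 to 97.9 and tag AM1757 96.8 to 136. At p20, controls held 0 to 0.508 CPM, which is 21 reads over 8 libraries, Exosc10 cKO 0 to 1.39 and dcKO 0 to 2.002, whereas Dis3 cKO oocytes held 252 to 339. Oocytes labelled dcKO lack Dis3 as well, and their Pxdn range lay wholly below that of the Dis3 cKO oocytes.

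BC023719 (ENSMUSG00000092365, chr17:36111397-36117093) held 63.3 CPM in GV control 1 and 0.114 to 1.53 in GV controls 2 to 8. GV Dis3 cKO oocytes 1 to 8 held 10.2 to 52.1 CPM and 10 to 16 held 0.194 to 1.06. At GV3h, controls held 0.229 to 1.40 CPM, Dis3 cKO 1 to 8 held 30.02 to 58.3 and 9 to 16 held 0.0813 to 1.97. MII controls held 12.2 to 25.3 CPM, Dis3 cKO eggs 1 to 4 held 32.05 to 46.1, eggs 5 to 11 held 0.0904 to 1.28 and eggs 12 to 16 held 8.90 to 38.3. The same 7 MII eggs without Pxdn reads were those near zero for BC023719 and high for Pnpla3. In adult controls, AM1758 held 10.4 to 16.4 CPM and AM1759 0.0762 to 0.606, and in adult Dis3 cKO, AM1713 held 13.2 to 18.9 and AM1757 0.380 to 0.677. At p20, controls held 24.6 to 33.8 CPM, dcKO 5.65 to 17.2, Exosc10 cKO 16.8 to 27.1 and Dis3 cKO 0 to 2.35. BC023719 overlaps H2-T10 and H2-T-ps, and the use of strand in the authors' counting is not given in the sources used here, so their reads cannot be told apart.

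**Figure D1:**
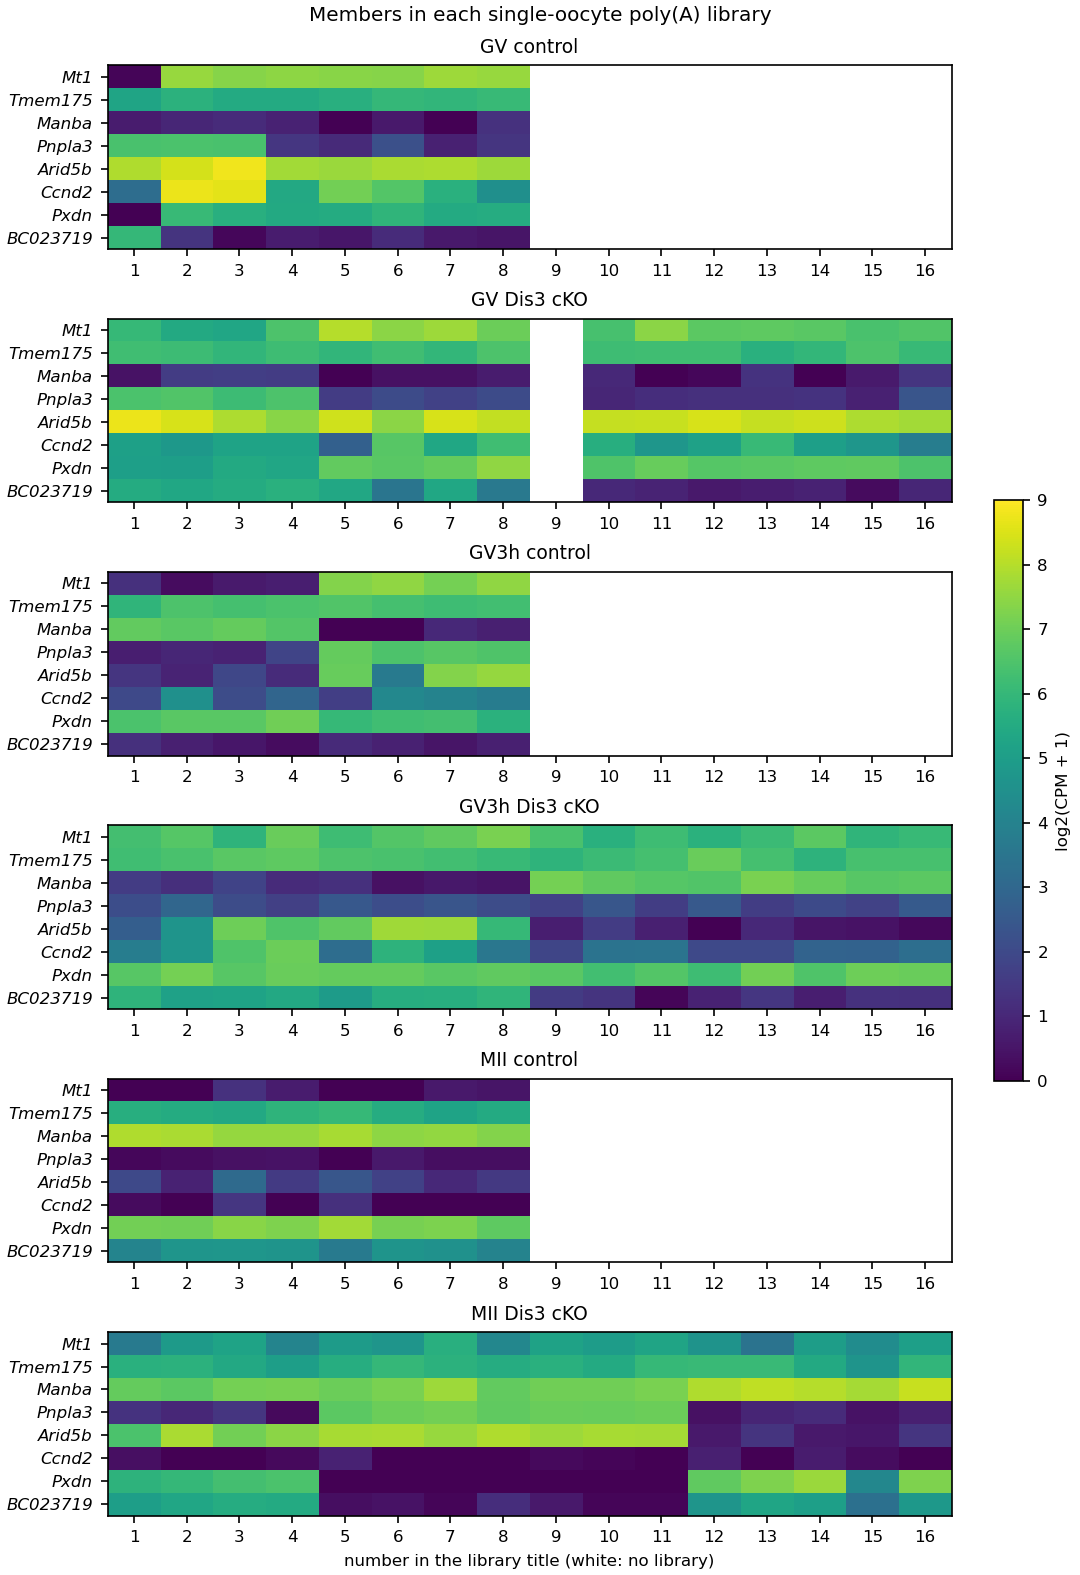
Each cell of the heat maps is one poly(A) library, with title numbers 1 to 16 across and the 8 genes down, coloured by log2(CPM + 1), for each of the 6 poly(A) groups. Blocks of neighbouring title numbers share a colour, as for Pxdn and BC023719 at 0 to 1.28 CPM in MII Dis3 cKO 5 to 11 and Manba at 92.7 to 144 CPM in GV3h Dis3 cKO 9 to 16.

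**Figure D2:**
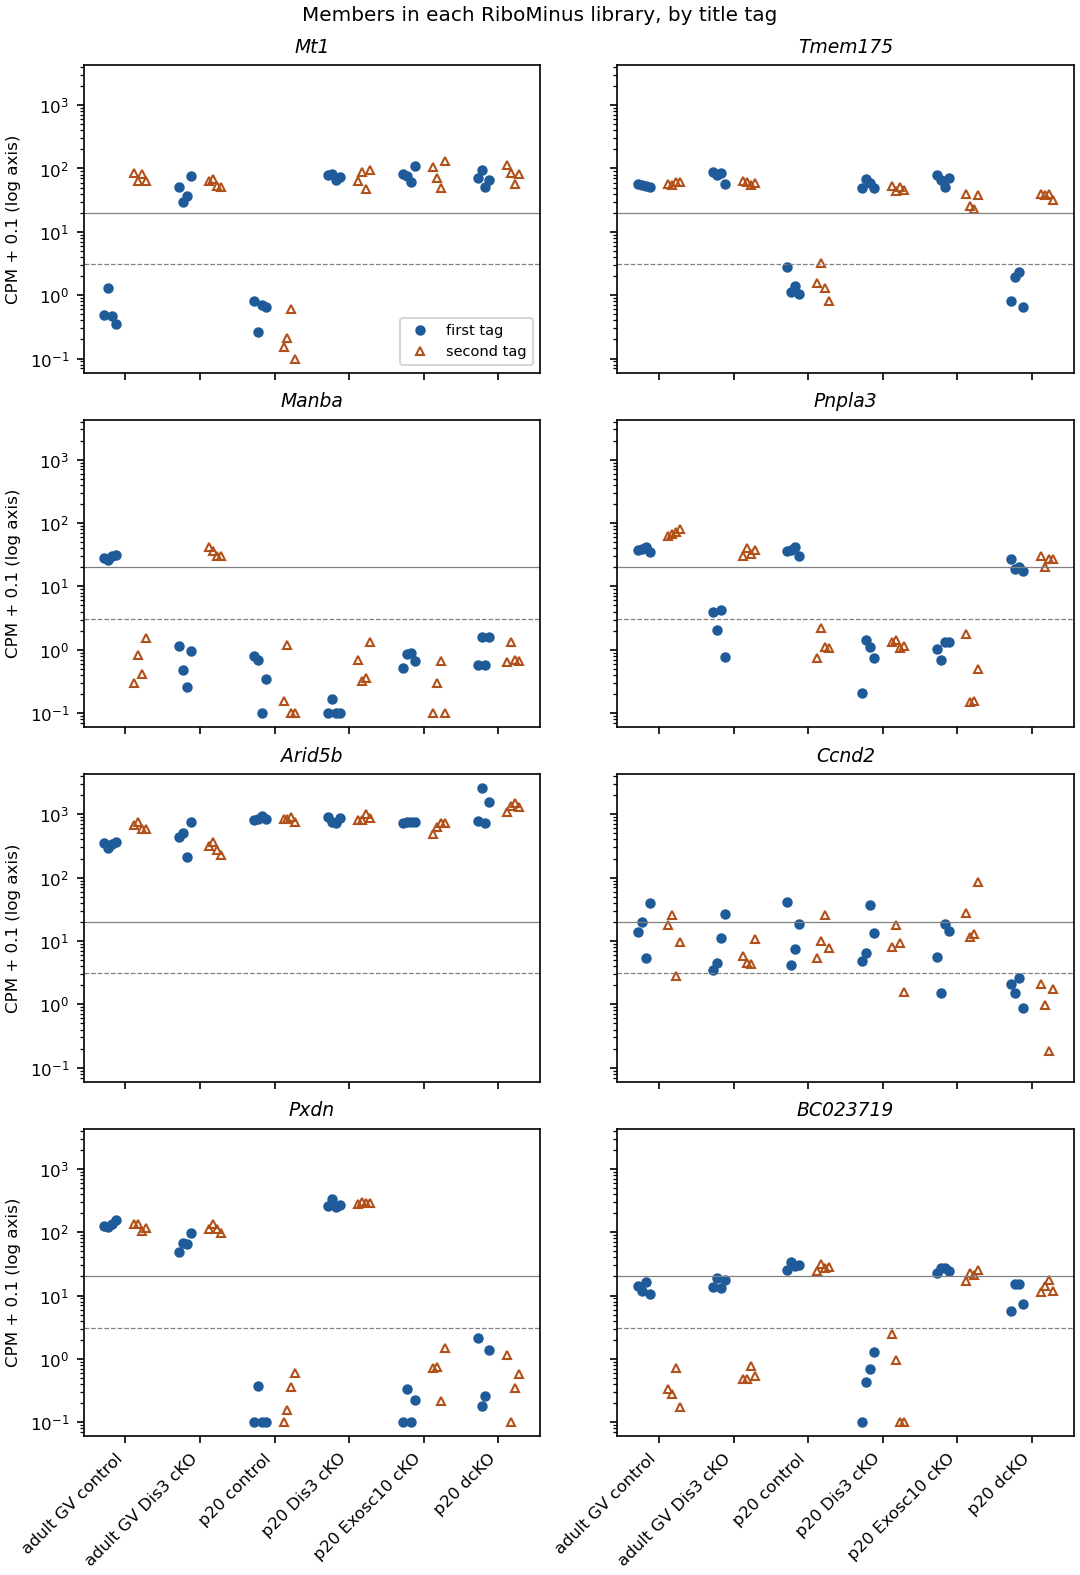
Each point is one RiboMinus library, with CPM on a log axis, for the 8 genes in 6 groups. Filled circles are the first title tag of a group and open triangles the second, and the solid and dashed lines mark 20 and 3 CPM. Mt1 and BC023719 in adult controls, Manba in both adult groups and Pnpla3 in p20 controls separate into circles on one side and triangles on the other.

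A group was counted as split where at least 2 libraries were high and at least 2 near zero. Of 96 pairs of a gene and a group, 21 were split, in 9 of 12 groups. Pnpla3 was split in 6 groups, Manba in 4, Arid5b and BC023719 in 3 each, Mt1 in 2, and Tmem175, Pxdn and Ccnd2 in 1 each. The split group of Ccnd2, GV3h Dis3 cKO, rests on 3 oocytes at 2.66 to 2.98 CPM just inside the limit, and it has no split group at limits of 30 and 1 CPM. Among all genes that passed the filter, 0.109% were split in GV controls, 0.604% in GV Dis3 cKO, 0.104% in GV3h controls, 0.334% in GV3h Dis3 cKO, 0.0518% in MII controls and 0.638% in MII Dis3 cKO. Poly(A) control groups hold 8 libraries and Dis3 cKO groups 15 or 16, and a larger group meets the rule more easily. The poly(A) shares are therefore not compared between genotypes. In RiboMinus groups these shares were 0.0579% in adult controls, 0.249% in adult Dis3 cKO, 0.0463% in p20 controls, 0.0811% in p20 dcKO, 0.0174% in p20 Dis3 cKO and 0.0405% in p20 Exosc10 cKO. The 8 genes were chosen for splitting, so nothing is read from their own count.

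In the RiboMinus groups high and near-zero libraries followed the sample titles. There each title carries one of 2 tags, and in all 6 split pairs of a gene and a group no tag held both a high and a near-zero library. Among the other genes split in a RiboMinus group the same held for 48 of 79, or 60.8%. In poly(A) groups the title carries only a running number, and runs of neighbouring numbers were read from these same 8 genes after their values were seen, so that the 15 split pairs are unmixed by these runs by construction. By fixed runs of 4 numbers, 10 of the 15 split pairs were unmixed, with none of the 1 in GV controls and none of the 4 in MII Dis3 cKO, and so were 115 of 296 other split genes. For other split genes in the 5 poly(A) groups with such pairs, 136 of 296, or 45.9%, were unmixed by the runs read from the 8. No run was drawn in MII controls, where none of the 8 genes was split and 9 other genes were. The labels do not say what a tag or a run of numbers marks, and animal, litter, collection day and library batch cannot be told apart.

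The comparison of genotypes asks which transcripts change when the exosome ribonucleases are lost. A gene is called where the Benjamini-Hochberg adjusted p of edgeR's quasi-likelihood F test over all genes is below 0.05. Fold changes are log2. The SE beside a fold change is its size divided by the square root of its F value. It is an approximate standard error and not one that the fit returned. At GV, 21.9% of all genes were called and 2 of the 8, Ccnd2 at -1.96 (SE 0.53) and Tmem175 at 0.34 (SE 0.13). At GV, 11 of the 18 granulosa or cumulus markers had a lower median in Dis3 cKO than in controls and 6 a higher one. At GV3h, 38.6% of all genes were called and 2 of the 8, BC023719 at 4.77 (SE 1.23) and Pnpla3 at -3.96 (SE 0.91). Manba, split in both genotypes there, had a fold change of -0.01 (SE 0.66). At MII, 42.1% of all genes were called and 4 of the 8, Mt1 at 5.99 (SE 0.83), Pnpla3 at 7.50 (SE 1.5), Arid5b at 5.46 (SE 1.14) and Pxdn at -1.44 (SE 0.60). In adult RiboMinus libraries 28.1% of all genes were called and 1 of the 8, Pxdn at -0.54 (SE 0.17). With counts summed over 4 title numbers, none of the 8 was called at GV3h, where the share of all genes fell to 20%. Fewer of the 8 were called at GV and at MII than above, as were fewer of all genes (8.62% and 23.3%). Summed per title tag, none of the 8 and 0% of all genes were called in adults.

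At p20 the 3 mutant groups were compared with the same 8 controls. For Dis3 cKO, 7.37% of all genes were called and 5 of the 8, Pxdn at 10.88 (SE 0.51), Mt1 at 7.76 (SE 0.33), Tmem175 at 5.05 (SE 0.63), BC023719 at -5.40 (SE 0.41) and Pnpla3 at -4.28 (SE 0.71). For Exosc10 cKO, 7.45% of all genes were called and 3 of the 8, Mt1 at 7.93 (SE 0.33), Tmem175 at 4.93 (SE 0.63) and Pnpla3 at -4.64 (SE 0.71). With counts summed per title tag, fewer of the 8 were called in both of these comparisons, as were fewer of all genes (1.37% and 0.832%). For dcKO, 53.7% of all genes were called and 6 of the 8, Mt1 at 7.67 (SE 0.33), Tmem175 at 3.49 (SE 0.60), Pxdn at 1.94 (SE 0.73), Arid5b at 0.51 (SE 0.15), BC023719 at -1.39 (SE 0.32) and Ccnd2 at -3.57 (SE 0.66). Beside the Ccnd2 value, 12 of the 18 granulosa or cumulus markers had a lower median in dcKO than in p20 controls and 5 a higher one, the lower ones including Inhbb at 0 against 1.29 CPM, while the marker sum ran from 135.4 to 219.3 CPM in dcKO and 126.1 to 193.5 in controls. The part of such cells in the Ccnd2 value was not tested. The p20 controls held Mt1 and Pxdn at 0 in some libraries, so these fold changes depend on the small count that the fit adds and are not bounds.

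In 10 of these 23 calls the ranges of mutant and control libraries did not overlap, and in 13 they did. Among all called genes the share without overlap was 14% at GV, 24.0% at GV3h, 8.48% at MII and 24.6% in adult RiboMinus libraries. At p20 it was 34.1% in Dis3 cKO, 22.5% in Exosc10 cKO and 35.5% in dcKO. Without overlap were Mt1 at MII, where 3.57% of all genes did not overlap, Mt1, Tmem175, Pxdn and BC023719 in p20 Dis3 cKO (2.78% of all genes), Mt1 and Tmem175 in p20 Exosc10 cKO (1.83%), and Mt1, Ccnd2 and BC023719 in p20 dcKO (19.5%). At GV, at GV3h and in adult RiboMinus libraries, where 3.09%, 9.33% and 6.97% of all genes did not overlap, each of the 8 genes overlapped. Every genotype call of Pnpla3 was among the 13, since at least 1 group of each of those comparisons was split.

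Leaving out 1 title tag of a group showed how far a fold change rested on which oocytes were sampled. In adults, Mt1 had a fold change of 0.48 (SE 0.85) and was not called, but it was 6.58 and called without control tag AM1759, and -0.52 without control tag AM1758. BC023719 in adults was at 0.13 with all libraries, -3.86 and called without Dis3 cKO tag AM1713, and 4.73 and called without control tag AM1758. Manba in adults was at 0.20 with all libraries, -4.80 and called without Dis3 cKO tag AM1757, and 4.69 and not called without control tag AM1758. Pnpla3 in adults was at -1.55 and not called, and was called at -0.66 without AM1713 and at -4.53 without AM1757. Pxdn in adults, called at -0.54, was at -0.20 and not called without AM1713 and at -1.02 and called without AM1757. For Mt1, BC023719 and Manba in adults, the sign of the genotype difference thus depended on the tag.

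**Figure D3:**
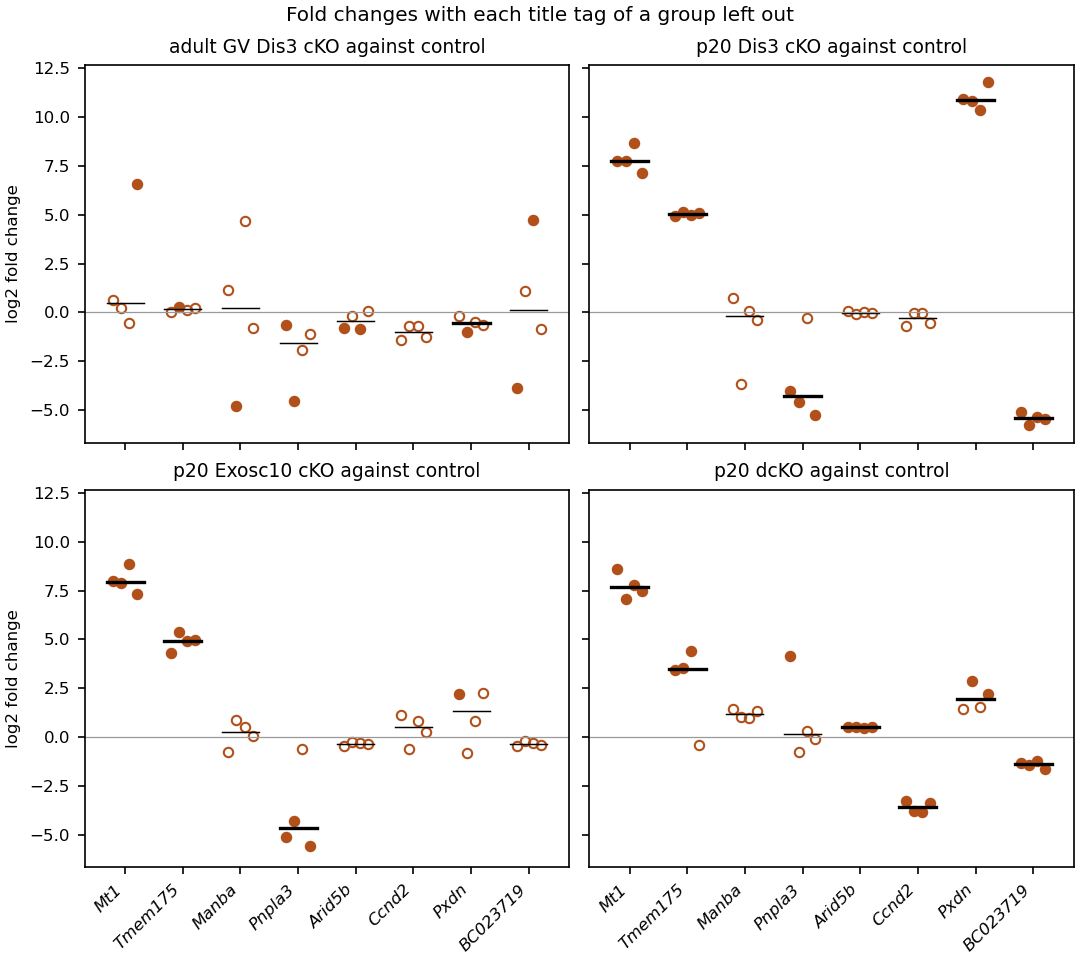
Log2 fold changes of mutant against control in the RiboMinus comparisons, with a black bar for the fit of all libraries, drawn thick where called, and orange circles for fits with 1 title tag left out, filled where called. In adults Mt1 runs from -0.52 to 6.58 and BC023719 from -3.86 to 4.73, while Mt1 in p20 Dis3 cKO runs from 7.15 to 8.69 and was called in each of those fits.

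At p20, Pnpla3 depended on the controls. Without controls of first number 1 its fold change went from -4.28 to -0.27 in Dis3 cKO and from -4.64 to -0.63 in Exosc10 cKO, both no longer called, and in dcKO it went from 0.16, not called, to 4.17 and called. Tmem175 in dcKO went from 3.49 to -0.42 and was no longer called without the dcKO oocytes of first number 2. Pxdn in dcKO was at 1.42 without controls of first number 1 and at 1.52 without dcKO of first number 1, in both cases not called. In poly(A) libraries, BC023719 at GV went from 1.02 (SE 0.94), not called, to 4.69 and called without GV control 1, and Tmem175 at GV went from 0.34 to 0.27 and was no longer called. Without Dis3 cKO 15, Pxdn at MII went from -1.44 to -1.38 and was no longer called. With title numbers 1 to 8 only, the Manba difference at GV3h went from -0.01 to -5.68 and was called, although with all numbers both genotypes held the same pair of states.

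Stage and age differences of the same genes were read against the same background. From GV to GV3h in controls, 2.71% of all genes were called and 3 of the 8, Manba at 6.25 (SE 1.10), Tmem175 at 0.60 (SE 0.14) and Ccnd2 at -3.81 (SE 0.70). In Dis3 cKO the same step called 17.3% of all genes and 3 of the 8, Manba at 6.06 (SE 0.78), Arid5b at -2.53 (SE 0.71) and Pnpla3 at -2.81 (SE 0.82). Beside the Ccnd2 value in controls, 14 of the 18 granulosa or cumulus markers had a lower median at GV3h than at GV and 3 a higher one, with Inha at 21.4 and 1.31 CPM, and their sum ran from 76.9 to 118.4 CPM against 99.1 to 212. The part of such cells in that value was not tested. The GV3h groups behind the Manba values were split in both genotypes. In Dis3 cKO the GV3h group behind the Arid5b value and the GV group behind the Pnpla3 value were split too. The GV controls behind the Pnpla3 value from GV to MII below were also split. From GV to MII, 58.5% of all genes and 6 of the 8 were called in controls, with Mt1 at -8.33 (SE 0.89), Pnpla3 at -6.66 (SE 1.51) and Pxdn at 2.06 (SE 0.74) besides Arid5b, Ccnd2 and Manba. Without GV control 1 these 6 stayed called, with Mt1 at -8.44, Pnpla3 at -6.17 and Pxdn at 1.95, and BC023719 went from 1.48, not called, to 5.25 and called. Under ERCC scaling 87.8% of all genes were called in controls, 58 higher and 15217 lower, against 3950 and 6229 without it. The median log2 fold change of all genes went from -0.272 to -2.12 under that scaling, so the fold changes above are relative to other genes. In Dis3 cKO, 63.3% of all genes and 3 of the 8 were called, with Mt1 at -1.83 (SE 0.43), Ccnd2 at -7.26 (SE 0.68) and Manba at 7.98 (SE 0.82). Beside the Ccnd2 values from GV to MII, the median of Inha went from 21.4 to 0 CPM in controls and from 5.13 to 0 CPM in Dis3 cKO. The summed granulosa or cumulus markers ran from 99.1 to 212 CPM in GV controls and 87.4 to 213.1 in MII controls, and from 84.6 to 224.9 in GV and 57.2 to 97.6 in MII Dis3 cKO. The markers with a median under 1 CPM went from 10 to 13 of 18 in controls and from 8 to 13 of 18 in Dis3 cKO, and their part in these values was not tested. The interaction of Dis3 loss with stage was called for 2.04% of all genes and 1 of the 8 at GV3h (Ccnd2), and for 13.2% and 3 of the 8 at MII (Mt1, Pnpla3 and Arid5b). Without GV control 1 the MII interaction of BC023719 went from -1.22, not called, to -4.92 and called. The interaction with age in RiboMinus libraries was called for 9.32% of all genes and 4 of the 8 (Mt1, Tmem175, Pxdn and BC023719).

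Genes with the most similar pattern were ranked by Pearson's r of log2(CPM + 1) after each group's mean was subtracted, over 71 poly(A) or 48 RiboMinus libraries that share depth, scaling and runs of titles. BC023719 went with H2-T10 at 0.998 and H2-T-ps at 0.969 in poly(A) libraries, both of which overlap it, and with AC104866.2 at 0.933 and H2-T10 at 0.925 in RiboMinus. Pnpla3 went with Gm49513 at 0.977, itself split in 4 groups, and with Nfam1 at 0.851 in poly(A) and 0.878 in RiboMinus. Nfam1 lies on the same chromosome, 1130 kb away. Ccnd2 went with Gm43126 at 0.948 and Cplx2 at 0.696 in poly(A), and with Cenpb at 0.713 and the granulosa gene Inhbb at 0.705 in RiboMinus. Arid5b went with AY512915 at 0.904 and Gm32687 at 0.83 in poly(A), and in RiboMinus with Papss1 at 0.643 and Slc10a6 at 0.583. Manba went with the predicted gene Gm5900 in both assays, at 0.818 and 0.935, then with Gm17936 at 0.804 and Gm9825 at 0.896. Pxdn went with Tox3 at 0.863 and Gm15668 at 0.816 in poly(A), and in RiboMinus with Stau2 at 0.678 and Ndufa9 at 0.666. Mt1 went with Mro at 0.658 and 5033426E14Rik at 0.624 in poly(A), and with Cd200 at 0.715 and Gm44988 at 0.693 in RiboMinus. Tmem175 went with its overlapping neighbour Dgkq at 0.651 and with Dpp9 at 0.586 in poly(A), and with B020011L13Rik at 0.858 and Slco3a1 at 0.824 in RiboMinus.

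A share of the like genes lay on the member's own chromosome. Of the 20 genes most like BC023719 in poly(A) libraries, 16 had a position and 8 of these, or 50%, were on chromosome 17, which holds 4.7% of all genes with a position. Among those on chromosome 17 were H2-T10 and H2-T-ps, which overlap BC023719. For Tmem175, 7 of 20 like genes, or 35.0%, were on chromosome 5, the overlapping Dgkq among them, against 6.61% of all genes. These were the highest shares of the 8 genes, and the others were 4 of 19 for Arid5b, 3 of 16 for Pnpla3, 2 of 16 for Mt1, 2 of 18 for Manba, 1 of 14 for Pxdn and 0 of 19 for Ccnd2. In RiboMinus libraries the shares were 3 of 16 for BC023719 and 1 of 19 for Tmem175, and from 0 of 18 for Mt1 to 4 of 18 for Pnpla3 among the others. Directly neighbouring genes mostly did not follow. Samm50, 2.72 kb from Pnpla3, had r of 0.628 in poly(A) and -0.248 in RiboMinus libraries, and Pnpla5, a lipase on its other side, had -0.315 and -0.545. H2-T22, 68.7 kb from BC023719, ran the other way with r of -0.649 in poly(A) libraries. Apart from genes overlapping BC023719, Idua near Tmem175 was the only named neighbour split in any group, with 1.

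The 6 lists of other genes from the same pathways, 83 genes in all, covered metal response, lipases, lysosomal enzymes and channels, ARID proteins, basement membrane with heme peroxidases, and G1 cyclins with their partners. Of 72 that passed the filter in poly(A) libraries 1 was split in any group, the heme peroxidase Mpo, at 0 to 23.7 CPM, and of 73 in RiboMinus libraries 0 were. That is 1.39% and 0%, against 1.58% and 0.446% of all genes split in at least 1 group of the assay, so the lists were near the background. Slc39a10, a zinc importer, ran from 372.5 to 1096 CPM and Mtf1, the factor that drives metallothionein genes, from 195.8 to 344 CPM over the poly(A) libraries, in which Mt1 ran from 0 to 258. Lamp1, a lysosomal membrane protein, ran from 15.1 to 298.6 CPM and Ccne2, cyclin E2, from 46.4 to 205 CPM. Pnpla8, Dgat2, Mcoln1, Arid1a, Jarid2 and Rb1, the other most abundant genes of their lists, were split in no poly(A) group. In the MII comparison 10 of the 72 were called higher and 11 lower, which is 29.2% against 42.1% of all genes. In p20 Dis3 cKO 1 of 69 was called higher and 1 lower, 2.9% against 7.37%, in p20 Exosc10 cKO 1 higher and 3 lower, 5.8% against 7.45%, and in p20 dcKO 20 higher and 17 lower, 53.6% against 53.7%. In the adult comparison 7 of 67 were called higher and 13 lower, 29.9% against 28.1%. At GV 5 of 72 were higher and 6 lower, and at GV3h 12 higher and 5 lower, 15.3% and 23.6% against 21.9% and 38.6%. The G1 list had 4 of 14 higher and 5 lower at MII, with a median log2 fold change of 0.41 against 0.16 for all genes. The metal list had 2 of 8 higher and 2 lower there, with a median of -0.11.

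CUT&Tag peaks, which the choice of genes did not use, were counted within 2 kb of the start site for the 6 genes that have one in the promoter table, which leaves out BC023719 and Ccnd2. A peak of the RNA polymerase II mark lay at the Mt1 start in 3 of 3 adult Dis3 cKO lists, in 0 of 3 adult control lists and in 0 of 3 p20 control lists. Its total signal, as the authors' peak caller gave it, was 22227, 16581 and 25616, at percentiles 99.5, 92.8 and 99.9 of the signals in its own list. Between 7.16% and 22.4% of all genes had such a peak in the 3 adult Dis3 cKO lists, 4.27% to 7.83% in adult control lists and 12.5% to 15.5% in p20 control lists. No peak of that mark lay at the start of Tmem175, Manba, Pnpla3, Arid5b or Pxdn in any list at this window. Over the gene body of Arid5b, 186.8 kb long, each adult control list held 10 to 30 peaks of the mark, each adult Dis3 cKO list 28 to 86 and each p20 control list 68 to 75, and over that of Pnpla3 the lists of these groups held 1 to 2, 2 to 5 and 4 to 6. Tmem175, Manba and Pxdn had body peaks in some lists of each of the 3 groups. The lists held 19697 to 35843 peaks in all in adult controls, 30311 to 122606 in adult Dis3 cKO and 74287 to 82446 in p20 controls. Of all genes, 13% to 18.6%, 18.2% to 35.8% and 26.2% to 29.2% had a body peak in the lists of these groups. In the pooled adult material the on or off state of single control oocytes for Mt1 is not known, and 3 lists against 3 cannot reach a two-sided exact permutation p under 0.10.

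H3K27me3 peaks lay within 2 kb of the Pnpla3 start in 3 of 3 adult control lists and 0 of 3 adult Dis3 cKO lists, and in 2 of 3 p20 control lists and 0 of 3 dcKO lists. With a window of 1 kb only 1 of 3 adult control and 1 of 3 p20 control lists held one, and with peaks above the median total signal of their list 2 of 3 and 1 of 3 did, so the 3 of 3 depends on the window. Across all genes 23% to 38% had such a peak in adult control lists and 32.7% to 36.2% in adult Dis3 cKO lists, and 31.7% to 32.5% in p20 control and 36.1% to 42% in dcKO lists. At the Mt1 start they lay in 1 of 3 adult control, 1 of 3 adult Dis3 cKO, 0 of 3 p20 control and 3 of 3 dcKO lists. At Pxdn they lay in 0 of 3 adult lists of either genotype, 3 of 3 p20 control and 2 of 3 dcKO lists. Over the Pxdn gene body each adult control list held 11 to 12 H3K27me3 peaks, each adult Dis3 cKO list 1 to 8, each p20 control list 25 to 33 and each dcKO list 35 to 42. Over that of Manba the lists of these groups held 8 to 12, 16 to 21, 11 to 20 and 22 to 26, and over that of Ccnd2 5 to 6, 5 to 11, 7 to 12 and 8 to 13. Of all genes, 26.2% to 40.7%, 35.7% to 38.6%, 33.0% to 33.9% and 40% to 46.6% had a body peak of the mark in those lists, which held 87394 to 202628, 224934 to 276316, 151535 to 159895 and 244827 to 299716 peaks in all. Within 2 kb of the Manba start, H3K27me3 peaks lay in 1 of 3 adult control, 2 of 3 adult Dis3 cKO, 1 of 3 p20 control and 3 of 3 dcKO lists. With peaks above the median total signal of their list it was 1 of 3 in each of these groups. There was none at Tmem175 and 1 at Arid5b, in an adult Dis3 cKO list.

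**Figure D4:**
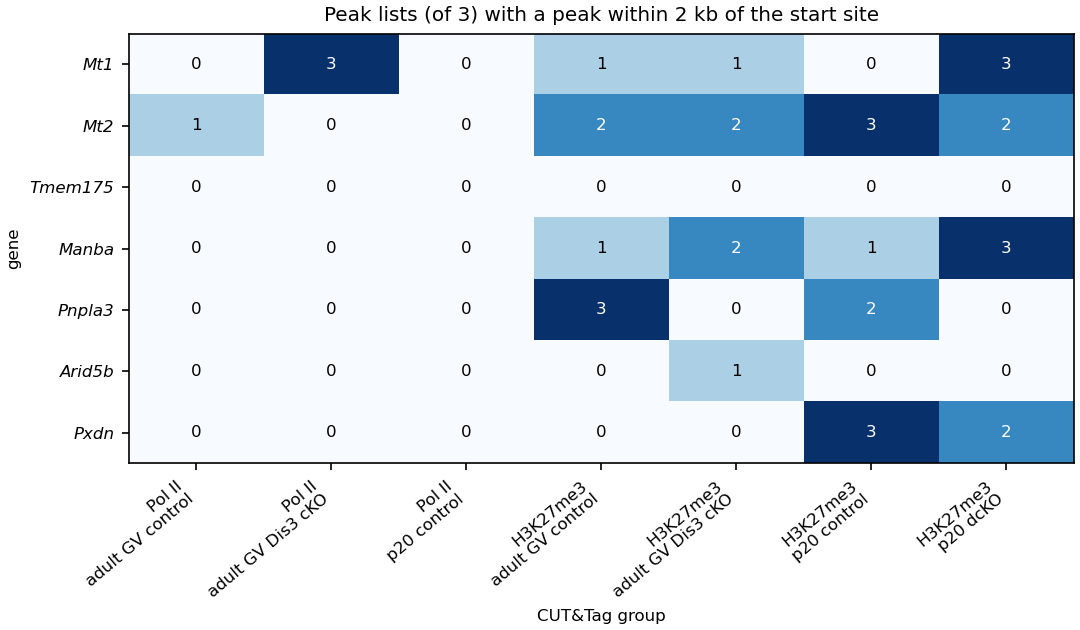
Number of the 3 peak lists of each CUT&Tag group with a peak within 2 kb of the start site, for the genes that have a start site in the promoter table. Mt1 shows 3 of 3 for the polymerase mark in adult Dis3 cKO and 0 in the other polymerase groups, and Pnpla3 shows 3 of 3 for H3K27me3 in adult controls, which falls to 1 of 3 with a window of 1 kb, and 0 in adult Dis3 cKO.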

How the data were processed

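RNA was measured in single mouse oocytes. The authors deposited 1 file of raw read counts per library, over Ensembl genes and spike-ins; cutadapt 2.5, FastQC 0.11.8, STAR 2.7.2a, SAMtools 1.9, HTSeq 0.9.1, R 3.5.1, DESeq2 1.24.0 and SEACR, with build mm10, are named per the submitters' processing notes, without order, and strand use in counting is not given in the sources used here. CUT&Tag peak lists give a total signal and a highest signal per peak as the authors' caller wrote them; reads were sampled to 1 depth without removing duplicates, per the labels, and 3 IgG samples were not analysed here.

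ERCC spike-in counts were kept apart. Counts were tested with edgeR 4.0.16 in R 4.3.3 (filterByExpr, TMM scaling, glmQLFit and glmQLFTest, Benjamini-Hochberg over all genes), after testing on simulated data, with 1 fit for the 6 poly(A) groups, 1 for the 4 p20 groups, 1 for the adult pair and 1 of all RiboMinus groups for differences between ages. Tests were fitted on the whole table. The 8 genes, the lists and the thresholds of 20 and 3 CPM were chosen with earlier results of these data known. Besides the 8, the text names per gene and assay the 2 most correlated genes, overlapping and nearest kept genes, and from each list split genes or the 2 of highest mean in poly(A) libraries; Inha was named after its values were seen. TGCNCNC was searched on both strands in the 250 bases before RefSeq start sites. Alternatives were DESeq2 1.42.0, ERCC scaling, no filter, smaller fits, summed counts, a replicate block, tags left out, other limits and windows; leaving out GV control 1 or MII Dis3 cKO 15 was added after seeing the data. Python 3.11.15, pandas 2.3.3 and matplotlib 3.10.9 made the tables and figures.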

Additional observations from a re-analysis of the deposited data

Results flagged for a closer look

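In groups of 8 libraries, 9 of 72 pairs of a gene and a group held 1 library far from the rest by Dixon's criterion, a rate that the choice of genes for such gaps sets, so the 1 in 20 that chance gives is no yardstick for it. GV control 1 stood out in 3 genes, with Mt1 at 0.102 CPM, Pxdn at 0 and BC023719 at 63.3. MII control 3 stood out for Mt1 at 1.44 CPM, where the other MII controls held 0.611 or less. It also held 19.7 CPM of the granulosa marker Inha, against 0 to 0.103 in the other MII controls. Foxl2 and Amhr2 were highest there too, at 0.679 and 0.255 CPM. Amh was highest in control 4 and Fshr in control 7, and Inhbb was at 0 in all MII controls. Inha was named after its values were seen, and the rest of the 18 markers are not given for this library. The part of such cells in the Mt1 value of MII control 3 was not tested. At p20, dcKO 1_2 stood out for Arid5b at 2561 CPM, Dis3 cKO 1_3 for Ccnd2 at 36.3 CPM, and Exosc10 cKO 2_4 for Ccnd2 at 83.7 CPM and for Pxdn at 1.39 CPM. Adult Dis3 cKO AM1713_4 stood out for Ccnd2 at 26.2 CPM. Of the 18 granulosa or cumulus markers, adult Dis3 cKO AM1713_4 was the highest of its group in 8, with a marker sum of 186.0 CPM against 99.2 to 139.2 in the others, Exosc10 cKO 2_4 in 7, with 216.3 CPM against 145.1 to 195.7, and Dis3 cKO 1_3 in 3, with 171.6 CPM against 123.3 to 214.1. The part of such cells in the Ccnd2 values was not tested.

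The Dis3 difference itself differed between stages or ages in 8 tests of an interaction term, given as differences of log2 fold changes. From GV to GV3h it moved by 3.12 for Ccnd2, and 2.04% of all genes passed that test. Between these stages the median of the granulosa gene Inha went from 21.4 to 1.31 CPM in controls and from 5.13 to 4.37 CPM in Dis3 cKO, and its part in the Ccnd2 value was not tested. From GV to MII it moved by 6.50 for Mt1, 8.06 for Pnpla3 and 5.40 for Arid5b, where 13.2% of all genes passed. Under ERCC scaling 30.1% of all genes passed that test, 5116 higher and 121 lower, against 1613 and 674 without it. Between p20 and adult RiboMinus oocytes the Dis3 difference moved by -7.30 for Mt1, -4.89 for Tmem175, -11.45 for Pxdn and 5.50 for BC023719. There 9.32% of all genes passed, and 3.38% under ERCC scaling. With 1 title tag left out the Mt1 value ran from -8.28 to -1.18 and the BC023719 value from 1.56 to 10.12. Adult controls of Mt1, and both adult groups of BC023719, hold one tag near zero and the other above 10 CPM, and the part of the tags in these values was not tested.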

How the results depend on the processing

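The count of the 8 genes called moved past 1.5 times under some settings. For Dis3 cKO at GV (2 called) it was 1 under ERCC scaling, with no filter, with the replicate block on title numbers 1 to 8, summed over 4 title numbers and with title numbers 1 to 8 alone. In the same order the share of all genes called was 20.6%, 11%, 23%, 8.62% and 23.1%, against 21.9%. At GV3h (2) the count of the 8 was 4 with the block and with numbers 1 to 8, where the share was 38.2% in each, against 38.6%. The count was 0 when summed, where 2 genes had an unadjusted p under 0.05. At MII (4) it was 1 when summed. In adults (1) it was 4 under ERCC scaling and 0 when summed per tag, where 1 gene had an unadjusted p under 0.05. The whole table moved too: in adults 28.1% of all genes were called, 44.6% under ERCC scaling, where the median log2 fold change of all genes shifted from 0.026 to -0.521, and 0% when summed. Summed, the share went from 21.9% to 8.62% at GV, 38.6% to 20% at GV3h, 42.1% to 23.3% at MII, 7.37% to 1.37% for p20 Dis3 cKO and 7.45% to 0.832% for Exosc10 cKO. For p20 dcKO it went from 53.7% to 31.8%. Summed per tag the count of the 8 was 3 for p20 Dis3 cKO (5) and 1 for Exosc10 cKO (3). From GV to GV3h it was 0 summed and 5 with numbers 1 to 8 in controls (3), and 1 with the block, summed, and with numbers 1 to 8 in Dis3 cKO (3). In the same order the share of all genes was 0% and 4.1% in controls (2.71%), and 12.2%, 1.94% and 12.7% in Dis3 cKO (17.3%). From GV to MII in Dis3 cKO (3) the count of the 8 was 6 under ERCC scaling, where 83.6% of all genes were called against 63.3%. The median log2 fold change of all genes was -1.505 there against -0.261. For differences between stages or ages the count of the 8 was 0 summed and 2 with numbers 1 to 8 at GV3h (1), 5 with the block and 1 summed at MII (3), and 1 summed for adult against p20 (4). In the same order the share of all genes was 0.00446% and 2.8% at GV3h (2.04%), 10.2% and 1.5% at MII (13.2%), and 0.307% for adult against p20 (9.32%). The control GV to GV3h step summed had 3 genes, and the GV3h difference 2, at an unadjusted p under 0.05. Polymerase peaks at a start site went from 3 of 54 pairs of a gene and a list to 9 at 5 kb, and H3K27me3 at Pnpla3 in adult controls from 3 of 3 lists to 1 at 1 kb. Signs turned for Manba at GV3h (0.06, ERCC), Mt1 at GV3h (0.80 with the block, 0.07 with numbers 1 to 8) and, under ERCC in adults, Mt1 (-0.07), BC023719 (-0.26) and Manba (-0.51). The cause was not tested.

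With 1 tag left out, the count ran from 1 to 4 in adults, 4 to 5 in p20 Dis3 cKO, 2 to 4 in Exosc10 cKO, 5 to 6 in dcKO and 3 to 5 for adult against p20. The share of all genes called ran from 13.7% to 37.4% in adults (28.1% with all libraries) and 2.84% to 4.52% in p20 Dis3 cKO (7.37%). It ran from 2.21% to 6.02% in Exosc10 cKO (7.45%), 36.9% to 50.1% in dcKO (53.7%) and 3.39% to 16.4% for adult against p20 (9.32%). Tmem175 in dcKO ran from -0.42 to 4.42, Mt1 in adults from -0.52 to 6.58, BC023719 from -3.86 to 4.73 and Manba from -4.80 to 4.69. Of 258 alternative fold changes of 38 followed outside tags left out, 216 kept direction and call, 31 lost the call, 5 gained it and 6 turned; DESeq2 kept 37 of 38. The labels do not say whether equal title numbers pair samples. Same-numbered oocytes had correlations of deviations from -0.189 to 0.217 over 15 pairs of poly(A) groups. Over 6 pairs of p20 groups they ran from -0.3 to 0.364. At most 3 oocytes were best matched to their own number. Such correlations cannot exclude a shared source. The block at p20 kept direction and call in 14 of 14 fold changes. The block on poly(A) numbers 1 to 8 kept 9 of 15, lost 3 calls, gained 2 and turned 1. Without the block the same libraries kept 12, lost 1, gained 1 and turned 1. Adult tags are not shared between genotypes, so no block could be fitted there. Near-zero states rest on at most 14.5 reads in the shallowest poly(A) library, which limits the precision of low levels.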

Other observations

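Over all genes that passed the filter, 275 were split in at least 1 poly(A) group and 77 in at least 1 RiboMinus group. Between the adult RiboMinus groups, each of 8 libraries under 2 tags, 43 genes were split in Dis3 cKO and 10 in controls, and this difference was not tested. Between the p20 RiboMinus groups, also of 8 libraries each, 8 genes were split in controls, 14 in dcKO, 3 in Dis3 cKO and 7 in Exosc10 cKO. In adult Dis3 cKO 24 of 41 split genes other than the 8, and in adult controls 5 of 8, were unmixed by tag.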
